A study of Mus musculus with 6 samples.

Results

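Classical monocytes of leukaemic and normal mouse lung are described here from single-cell RNA libraries of CD45-positive lung cells. They were chosen cell by cell on 7 genes of this class: Ly6c2, Ccr2, Vcan, F13a1, Fn1, Stxbp6 and Arhgef37. A cell was taken as a member if it held a transcript of 3 or more of the 7. It could hold at most 1 unique molecular identifier (UMI, 1 captured RNA molecule) summed over Cd79a, Cd3e, Ncr1, Plet1 and Retnlg, which mark lymphocytes, alveolar macrophages and neutrophils. At most 1 UMI was allowed over Ace, Treml4 and Cd300e of nonclassical monocytes, at most 2 over C1qa, C1qb and C1qc of macrophages, and at most 1 over Elane, Mpo and Ngp of immature myeloid cells. The rule found 5488 members among 71634 kept cells of 73095 deposited barcodes, 4333 of them in AML lung, against 1155 in normal lung. Kept cells had 500 or more UMIs, 200 or more genes and a mitochondrial share of UMIs under 10%.

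AML lung (lung infiltrated by acute myeloid leukaemia) and normal lung each contributed 3 libraries, called AML lung 1 to 3 and normal lung 1 to 3. Lungs of both groups were perfused and digested with collagenase and DNase I, CD45-positive leukocytes were enriched on magnetic beads, and droplet libraries of transcript 3' ends were made (10x Genomics). Strain, age, sex, the leukaemia used and the time since its onset are not given in the sources used here, and neither is whether each library came from 1 animal. The p-values below therefore measure the spread between libraries, which may be partly technical. Leukaemic cells of monocytic type and host monocytes cannot be told apart by this rule.

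Classical monocytes leave the bone marrow through the chemokine receptor Ccr2, carry the surface protein Ly6c, and enter inflamed tissue, where they can become macrophages or dendritic cells. Many convert in the blood to nonclassical monocytes, which lose Ly6c and Ccr2 and patrol the inside of vessels, including the capillaries of the lung. In emergency myelopoiesis the marrow can release monocytes that still carry granule proteins of their precursors.

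The libraries differed in depth, and the members with them. AML lung 1, 2 and 3 held 80, 820 and 3433 members with a median of 15931.5, 6023.5 and 1398 UMIs per member. Normal lung 1, 2 and 3 held 201, 297 and 657 members with a median of 15642, 8924 and 3839 UMIs. Summed UMIs of the members were 1252300, 5533476 and 5844363 in AML lung, against 3012046, 2862276 and 3303319 in normal lung. No member barcode was shared between libraries, and at most 1.07% of the smaller library's barcodes were shared between any pair. Of the 6 libraries, members of AML lung 3, the shallowest and largest, held the highest summed marker RNA of B cells, T cells, NK cells, neutrophils and erythroid cells. The same held for late neutrophil precursors, alveolar and interstitial macrophages, nonclassical monocytes and endothelial cells, and at a few CPM for platelets, basophils and mast cells. It did not hold for dendritic cells, immature myeloid cells, epithelial cells or fibroblasts. Summed over 6 B cell markers its members held 326 CPM (UMIs of a gene scaled to 1000000 summed UMIs), against 31.1 and 67.0 CPM in AML lung 1 and 2 and 44.7 to 172 CPM in normal lung. Summed over 7 neutrophil markers the members held 524, 1156 and 2223 CPM in AML lung, against 276, 299 and 413 CPM in normal lung, and over 5 erythroid markers 0.799, 0.723 and 493.5 CPM in AML lung, against 0, 12.9 and 21.2 CPM in normal lung. Over 7 alveolar macrophage markers, among them Chil3, which classical monocytes also make, the sums were 434, 570 and 1835 CPM in AML lung, against 1657, 1508 and 631 CPM in normal lung. Over 6 immature myeloid markers, Prtn3 among them, the sums were 248, 189 and 90.0 CPM in AML lung, against 25.9, 23.1 and 22.7 CPM in normal lung. Over 5 late neutrophil precursor markers, Lcn2 among them, they were 170, 157 and 261 CPM in AML lung, against 88.3, 98.2 and 56.6 CPM in normal lung. Neither overlapped between the groups. Among marker genes fixed for basophils and mast cells, Ms4a2, Fcer1a and Cyp11a1 were at 0 in every library.

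The 7 genes of the rule are given first, as a description with no test, because they chose the cells. Ly6c2, the surface marker of the class, stood at 1064, 1267 and 807 CPM in members of AML lung and at 1106, 1249 and 821 CPM in members of normal lung, summed over members and unscaled. The groups overlapped for Ly6c2. Ccr2, the receptor for the chemokine Ccl2, stood at 743 ± 156 CPM in AML lung, against 798 ± 101 CPM in normal lung (SD, n = 3 each), again with overlapping groups. Vcan, a matrix proteoglycan made by monocytes, had 232, 579.6 and 513 CPM in AML lung, against 265, 143 and 230.1 CPM in normal lung, so AML lung 2 and 3 stood above all normal libraries and AML lung 1 within them. F13a1, the coagulation factor XIII subunit, had 1028, 500.05 and 919.9 CPM in AML lung, against 1410.0, 1377 and 1235 CPM in normal lung. Fn1, or fibronectin, averaged 915 ± 97.0 CPM in AML lung, against 1342 ± 153 CPM in normal lung (SD, n = 3 each). Stxbp6 averaged 455 ± 194 CPM in AML lung, against 844 ± 126 CPM in normal lung, and Arhgef37, a guanine nucleotide exchange factor, 295 ± 22.7 CPM in AML lung, against 458 ± 81.3 CPM in normal lung (SD, n = 3 each). For these last 4 genes every AML library was below every normal library.

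**Figure D1:**
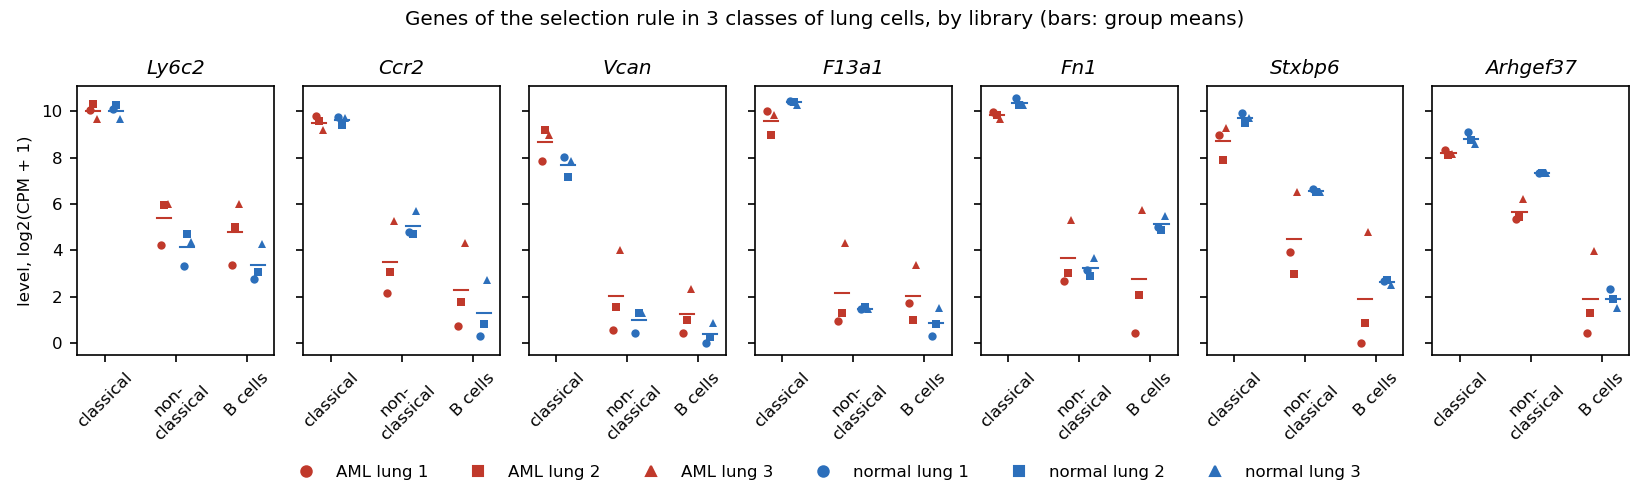
Level of each of the 7 genes of the rule, as log2(CPM + 1), in classical monocytes, nonclassical monocytes and B cells, with 1 point per library and bars at the group means (AML lung red, normal lung blue). In classical monocytes Ly6c2 and Ccr2 overlap between the groups, while F13a1, Fn1, Stxbp6 and Arhgef37 are lower in all 3 AML libraries. Nonclassical monocytes and B cells were themselves limited to cells with few of the 7 genes.

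In nonclassical monocytes, taken as cells with 2 or more of Ace, Treml4 and Cd300e and fewer than 3 genes of the rule, Ly6c2 reached 18.0 to 64.0 CPM in AML lung and 9.07 to 25.2 CPM in normal lung. B cells, chosen with fewer than 2 of the 7 genes, held 9.44 to 62.4 CPM of Ly6c2 in AML lung and 5.72 to 18.5 CPM in normal lung. The low levels in nonclassical monocytes and B cells are therefore partly fixed by how these cells were chosen. Of the 6 libraries, the B cells of AML lung 3 held the most of each of the 7 genes, Fn1 at 53.0 CPM among them. The label was also checked on 20 other genes of classical monocytes, such as Lyz2, Plac8 and Chil3, that the rule did not use. Their summed level was 24629, 20205 and 24060.1 CPM in members of AML lung and 28729.6, 32437 and 26759 CPM in members of normal lung. In nonclassical monocytes of the same libraries it was 8926 to 10807 CPM in AML lung and 11372 to 13561 CPM in normal lung. Lyz2, or lysozyme, was a large part of these sums. Scaled by TMM factors, it had 7110 to 11298 CPM in members of AML lung and 13720 to 17963 CPM in those of normal lung. In nonclassical monocytes Lyz2 had 1308 to 2474 CPM in AML lung and 4215 to 4983 CPM in normal lung.

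The threshold of 3 genes lay inside a continuum. Members with exactly 3 of the 7 genes made up 16.2%, 24.9% and 43.2% of members in AML lung, against 4.98%, 8.75% and 25.3% in normal lung, and the share was highest in the shallowest library of each group. Just outside, 48, 282 and 2089 cells of AML lung and 27, 79 and 348 cells of normal lung had exactly 2 of the 7 and met every limit. Which 3 genes such members held differed between libraries, and with exactly 3 present the other 4 had to be absent. In AML lung 1 these 13 cells held 597 CPM of Ly6c2 and 416 CPM of Stxbp6 but 0 CPM of Vcan and of F13a1, and in normal lung 1 the 10 such cells held 4.73 CPM of Vcan and 37.9 CPM of F13a1. Such members held 660.1 CPM of F13a1 in AML lung 3, against 439 CPM in normal lung 3. The count of calls was repeated with 4 or more genes required. Of the cells with 3 or more rule genes, the limits on other cells' genes left out 67.2%, 40.3% and 25.2% in AML lung, against 53.0%, 50.9% and 33.1% in normal lung. The limit on Ace, Treml4 and Cd300e was exceeded by 61.1%, 33.6% and 9.55% of them in AML lung, against 46.5%, 44.3% and 26.6% in normal lung. The limit on Elane, Mpo and Ngp was exceeded by 9 of 244, 55 of 1374 and 52 of 4588 of them in AML lung. In normal lung it was exceeded by 1 of 428, 1 of 605 and 0 of 982.

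Classical monocytes made up 1.76% (95% Wilson interval 1.42 to 2.19), 6.32% (5.91 to 6.75) and 9.74% (9.44 to 10.1) of kept cells in AML lung. In normal lung they made up 5.68% (4.97 to 6.49), 5.39% (4.83 to 6.02) and 6.67% (6.20 to 7.18). The intervals cover counting error only. AML lung 1 was the lowest and AML lung 3 the highest of all libraries, so the normal libraries lay between them. The means were 5.94% ± 4.0 in AML lung, against 5.92% ± 0.671 in normal lung (SD, n = 3 each), a difference of 0.0274 percentage points (exact permutation test, two-sided p = 1; the smallest p that 3 against 3 libraries can give is 0.1). The share stood beside a large one of nonclassical monocytes in AML lung 1 and 2, which made up 47.9%, 31.8% and 6.91% of kept cells in AML lung, against 7.94%, 9.64% and 6.29% in normal lung. With these left out of the total, classical monocytes made up 3.38%, 9.26% and 10.5% in AML lung, against 6.17%, 5.97% and 7.12% in normal lung, and the difference was 1.29 percentage points (exact permutation p = 0.6). The difference was negative with 4 or more genes required (-1.18 percentage points) and after thinning each cell to 1000 UMIs (-0.0471), and the lowest exact permutation p over all settings was 0.2.

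**Figure D2:**
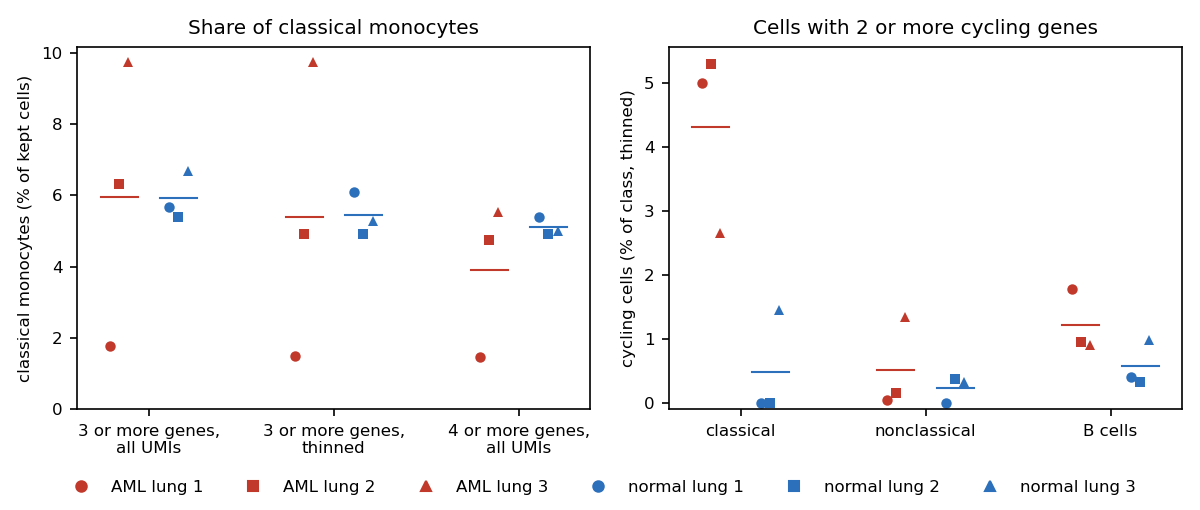
Left, classical monocytes as a percentage of kept cells, by the rule of 3 genes on all UMIs, by the same rule after thinning each cell to 1000 UMIs, and by 4 or more genes. Right, percentage of thinned cells with 2 or more of 13 cycling genes in classical monocytes, nonclassical monocytes and B cells. Points are libraries and bars are group means; the normal libraries lie between AML lung 1 and AML lung 3 on the left, and the 3 AML libraries lie above the normal ones for classical monocytes on the right.

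Against normal lung, 5 of 20 listed cell division genes and 4 of 17 listed granule genes rose in summed RNA of AML lung members. Among them were Top2a, Mki67, Lcn2 and Prtn3, while Thbs1, Sulf2, Il15 and Mef2c fell. Cell division genes outside the list, such as Pclaf, also passed the test. Raw UMIs were summed over the members of each library and tested with edgeR's quasi-likelihood test, with p-values adjusted by Benjamini-Hochberg over 10247 genes. At an adjusted p under 0.05, 40 genes were higher in AML lung (0.39% of those tested) and 19 were lower (0.185%), 59 in all (0.576%). The 40 include Elane, whose UMIs the rule itself limits, so its call supports nothing. At an unadjusted p under 0.05 there were 1807 genes, 10.1% of those tested higher and 7.57% lower, and the groups did not overlap for 2501 genes (24.4%). The median log2 change over all tested genes was 0.02. The calls rested on few libraries. They numbered 17, 4 and 526 without AML lung 1, 2 and 3, and 0, 2 and 3 without normal lung 1, 2 and 3. Without normal lung 1, 1098 genes still had an unadjusted p under 0.05 in edgeR, and DESeq2 on all libraries called 321. Lcn2 and Top2a passed without any 1 of the other 5 libraries, and neither passed without normal lung 1 (adjusted p = 0.145 and 0.191, edgeR).

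Several genes of cell division rose. Of the 20 cycling genes listed, 17 were tested, 5 passed the test and all 5 were higher in AML lung; the median log2 change of the 17 was 2.98, beside 0.02 over all tested genes. Genes such as Cdk1 and Ube2c met the low count filter through the AML libraries, where they were high. The count of calls and this median are therefore descriptions and support nothing. Of all tested genes, 0.39% were called higher. Summed over all listed genes in the files, tested or not, the members held 1233, 1354 and 801 CPM in AML lung, against 506, 519 and 539 CPM in normal lung, without overlap. T cell markers summed over 7 genes to 15.2, 43.6 and 131 CPM in AML lung, against 2.99, 11.5 and 30.3 CPM in normal lung, with overlap. Of the 7, 3 were tested and none passed, though all 3 were higher at an unadjusted p under 0.05 in edgeR, as were 10.1% of all tested genes. Their median log2 change, given only as a description, was 2.24, and none of the 7 was at 0 in every library. NK cell markers summed to 6.39, 17.7 and 213 CPM in AML lung, against 3.98, 23.8 and 72.0 CPM in normal lung. The part of either cell type in the cycling genes was not tested. Top2a, the topoisomerase that untangles DNA before mitosis, had 29.3, 34.2 and 35.0 CPM in AML lung, against 4.63, 2.53 and 5.21 CPM in normal lung (log2 change 2.98 ± 0.26, SE, adjusted p = 0.00975, edgeR). These CPM are scaled by TMM factors, as are all levels of tested genes below. Mki67, the proliferation antigen Ki-67, had 81.6, 55.0 and 40.7 CPM in AML lung, against 3.64, 4.69 and 12.9 CPM in normal lung (log2 change 3.0 ± 0.44, adjusted p = 0.0365, edgeR). The 3 AML libraries stood above all normal ones for both genes, and normal lung 3 was the highest of the normal libraries. Stmn1, which destabilises microtubules, had 73.7, 62.0 and 43.0 CPM in AML lung, against 2.64, 4.33 and 8.89 CPM in normal lung (adjusted p = 0.0259, edgeR). Ube2c, the ubiquitin-conjugating enzyme of the anaphase-promoting complex, had 82.4, 65.0 and 19.1 CPM in AML lung, against 2.31, 1.81 and 5.82 CPM in normal lung (adjusted p = 0.0429, edgeR). Cdk1, the mitotic kinase, was counted in 8, 22 and 28 UMIs in AML lung, against 1, 0 and 0 UMIs in normal lung. Chosen after their values were seen, Pclaf, a partner of the sliding clamp PCNA, and the mitotic motors Kif11 and Cenpe also passed the test, at 29.5 ± 14.8, 13.1 ± 4.55 and 16.5 ± 8.21 CPM in AML lung, against 1.29 ± 0.559, 1.08 ± 0.413 and 1.17 ± 0.750 CPM in normal lung (SD, n = 3 each). These genes too met the low count filter through the AML libraries.

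The promoters of 2 of these genes are shown because most promoters of the list hold the CCAAT box, the binding sequence of the factor NF-Y and a common element of mitotic promoters. Each is the 250 bases before the transcription start, 5′ to 3′ on the gene's strand, from RefSeq on GRCm38.p6, with capitals at CCAAT and its reverse complement ATTGG; neighbouring matches can overlap. Top2a lies on the minus strand at chr11:99024190-99024439 and Ube2c on the plus strand at chr2:164769679-164769928.
Top2a: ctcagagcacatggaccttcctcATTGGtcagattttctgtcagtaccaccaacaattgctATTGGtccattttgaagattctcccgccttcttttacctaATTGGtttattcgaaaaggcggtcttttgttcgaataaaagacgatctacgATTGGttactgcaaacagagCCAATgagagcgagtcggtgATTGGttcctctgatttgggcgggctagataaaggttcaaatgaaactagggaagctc
Ube2c: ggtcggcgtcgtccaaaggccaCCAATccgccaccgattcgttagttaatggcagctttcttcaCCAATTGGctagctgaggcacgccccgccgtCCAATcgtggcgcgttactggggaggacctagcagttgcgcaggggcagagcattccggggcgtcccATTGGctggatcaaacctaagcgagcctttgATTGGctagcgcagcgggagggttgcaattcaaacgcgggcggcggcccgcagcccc
Both windows held 6 matches. Of the 20 cycling genes 18 were matched to a promoter by symbol, and 14 of these held a CCAAT or ATTGG, or 77.8%, against 34.5% of all 27025 promoters. The 5 called genes included 4 with a promoter, and all 4 held at least 2 matches, as 10.5% of all promoters did. A match is a description of the letters and not a site.

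The share of cycling members was followed cell by cell. After each cell of 1000 or more UMIs was thinned to 1000 UMIs, which left out 0, 84 and 907 members of AML lung and 0, 1 and 109 of normal lung, a member was counted as cycling if it held 2 or more of 13 cycling genes. Such cells made up 5.0% (4 of 80 cells, Wilson interval 1.96 to 12.2), 5.30% (39 of 736, 3.90 to 7.16) and 2.65% (67 of 2526, 2.09 to 3.35) of members in AML lung. In normal lung they made up 0% of 201 cells (Wilson interval 0 to 1.88; the limit of 3 counts for a count of 0 is 1.49%), 0% of 296 cells (0 to 1.28; limit 1.01%) and 1.46% (8 of 548, 0.742 to 2.85). All 3 AML libraries lay above all normal ones, with means of 4.32% ± 1.45 in AML lung, against 0.487% ± 0.843 in normal lung (SD, n = 3 each; exact permutation test, two-sided p = 0.1, the smallest this design allows). In B cells, as a measure of free RNA and of cells in division elsewhere, the share was 1.79%, 0.957% and 0.901% in AML lung, against 0.412%, 0.324% and 0.988% in normal lung. In nonclassical monocytes it was 0.0460%, 0.149% and 1.35% in AML lung, against 0%, 0.377% and 0.333% in normal lung. Without thinning the share was 23.8%, 20.4% and 3.29% in AML lung, against 5.97%, 1.68% and 3.50% in normal lung, so AML lung 3 then lay within the normal libraries (exact permutation p = 0.3). After thinning to 500 UMIs it was 0%, 1.83% and 1.17% in AML lung, against 0%, 0% and 0.457% in normal lung, so AML lung 1 no longer stood above the normal libraries (exact permutation p = 0.4). Requiring 4 or more rule genes, a setting chosen after seeing the data, gave 2.99%, 5.79% and 2.62% in AML lung, against 0%, 0% and 1.12% in normal lung.

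Like all members, the cycling ones were chosen on the rule genes, whose levels in them are therefore a description. Those of AML lung 2 held 1751 CPM of Ly6c2 and 754 CPM of F13a1, and those of AML lung 3 held 928 CPM of Ly6c2 and 1151 CPM of F13a1, unscaled. In AML lung 1 the 4 cycling cells held 605 CPM of Ly6c2 and 771 CPM of F13a1, but 20.9 CPM of Thbs1, against 438 CPM in the other members of that library. The exactly-3 members of AML lung 1 also held 166 CPM of Top2a and 284 CPM of Mki67, against 2.95 and 44.2 CPM in its members with 5 or more rule genes. Without AML lung 1 only Top2a and Stmn1 of the 5 cycling calls remained, and 2 of 18 tested cycling genes were called. With 4 or more rule genes required, 5 of 15 tested cycling genes were called and their median log2 change was 1.89, and with no UMI of the other cells' genes allowed 1 of 15, with a median of 2.07.

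Granule genes had 4 calls. Of 17 listed genes 11 were tested, and 4 passed the test, all higher in AML lung: S100a8, Lcn2, Wfdc21 and Prtn3. The median log2 change of the 11 was 2.08. Genes such as Wfdc21 met the low count filter through the AML libraries, so the count of calls and this median are descriptions and support nothing. Of all tested genes, 0.39% were called higher. Summed over all 17, the members held 1124, 1721 and 2227 CPM in AML lung, against 529, 464 and 430 CPM in normal lung. S100a8, a calcium-binding protein of neutrophils and monocytes, had 137, 753 and 775 CPM in AML lung, against 14.9, 15.5 and 31.3 CPM in normal lung (log2 change 4.76 ± 0.66, adjusted p = 0.036, edgeR). In AML lung 2, 63.4% of its UMIs lay in the top 5% of members, with 375 UMIs in a single cell. S100a9, its partner in the calprotectin dimer, did not pass, at 15.8, 164 and 785 CPM in AML lung, against 17.2, 23.1 and 52.7 CPM in normal lung (adjusted p = 0.173, edgeR), and AML lung 1 was the lowest library of all. Lcn2, an iron-sequestering secondary granule protein, had 80.0, 115 and 129.8 CPM in AML lung, against 3.3, 7.58 and 3.06 CPM in normal lung (log2 change 4.57 ± 0.34, adjusted p = 0.00531, edgeR). Wfdc21, a secreted protein with a whey acidic protein domain, had 12.7, 109 and 60.2 CPM in AML lung, against 1.98, 2.17 and 3.98 CPM in normal lung (adjusted p = 0.0429, edgeR). Prtn3, the primary granule protease proteinase 3, had 231, 177 and 76.6 CPM in AML lung, against 18.5, 11.9 and 17.5 CPM in normal lung (log2 change 3.31 ± 0.40, adjusted p = 0.0272, edgeR). The groups did not overlap for any of the 4. Fcnb, a ficolin of granules, had 9.66 ± 3.46 CPM in AML lung, against 2.23 ± 0.611 CPM in normal lung and missed the threshold (adjusted p = 0.0785, edgeR). Elane, whose UMIs the rule itself limits, is given only as a rule gene. It was counted in 5, 44 and 29 UMIs in AML lung, against 1, 0 and 0 UMIs in normal lung. The limit on Elane, Mpo and Ngp was exceeded by a larger share of cells with 3 or more rule genes in every AML library than in any normal one. The granule RNA of the cells over that limit was not tested.

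Neutrophils carry much S100a8, Lcn2 and Wfdc21, and free RNA can reach other droplets, so each gene was compared with B cells of the same library after thinning to 1000 UMIs. Before thinning B cells had a median of 6731.5, 3761 and 1196 UMIs in AML lung, against 7432, 4685 and 3363 UMIs in normal lung. S100a8 was seen in 7.50%, 26.4% and 26.9% of members in AML lung, against 1.49%, 1.01% and 2.74% in normal lung. In B cells it was seen in 2.55%, 3.31% and 25.8% in AML lung, against 1.65%, 1.19% and 4.18% in normal lung. In AML lung 3 members and B cells held S100a8 at nearly the same share, and in normal lung the members were below the B cells. The part of free RNA in the S100a8 of members was not tested in any library. Lcn2 was seen in 5.0%, 9.24% and 9.46% of members in AML lung, against 0.498%, 0.338% and 0.365% in normal lung, while B cells had 0.510%, 0.442% and 8.41% in AML lung, against 0.206%, 0% and 0.228% in normal lung. Wfdc21 was seen in 2.50%, 8.56% and 5.50% of members and 1.28%, 0.809% and 7.06% of B cells in AML lung, so AML lung 3 lay below its B cells. Prtn3 was the exception among the 4. It was seen in 15%, 11.5% and 5.86% of members in AML lung, against 1.49%, 0% and 1.82% in normal lung. In B cells it was seen in 0%, 0.0736% and 0% in AML lung, against at most 0.206% in normal lung, and in neutrophils in at most 0.688%. Prtn3 was highest in the members with the most rule genes: those with 5 or more held 287, 203 and 83.3 CPM in AML lung, against 20.5, 13 and 20.8 CPM in normal lung, and those with exactly 3 held 0, 63.9 and 52.1 CPM in AML lung, against 0, 0 and 2.54 CPM in normal lung. It was not confined to cycling members, since the others held 246, 174 and 69.4 CPM in AML lung.

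**Figure D3:**
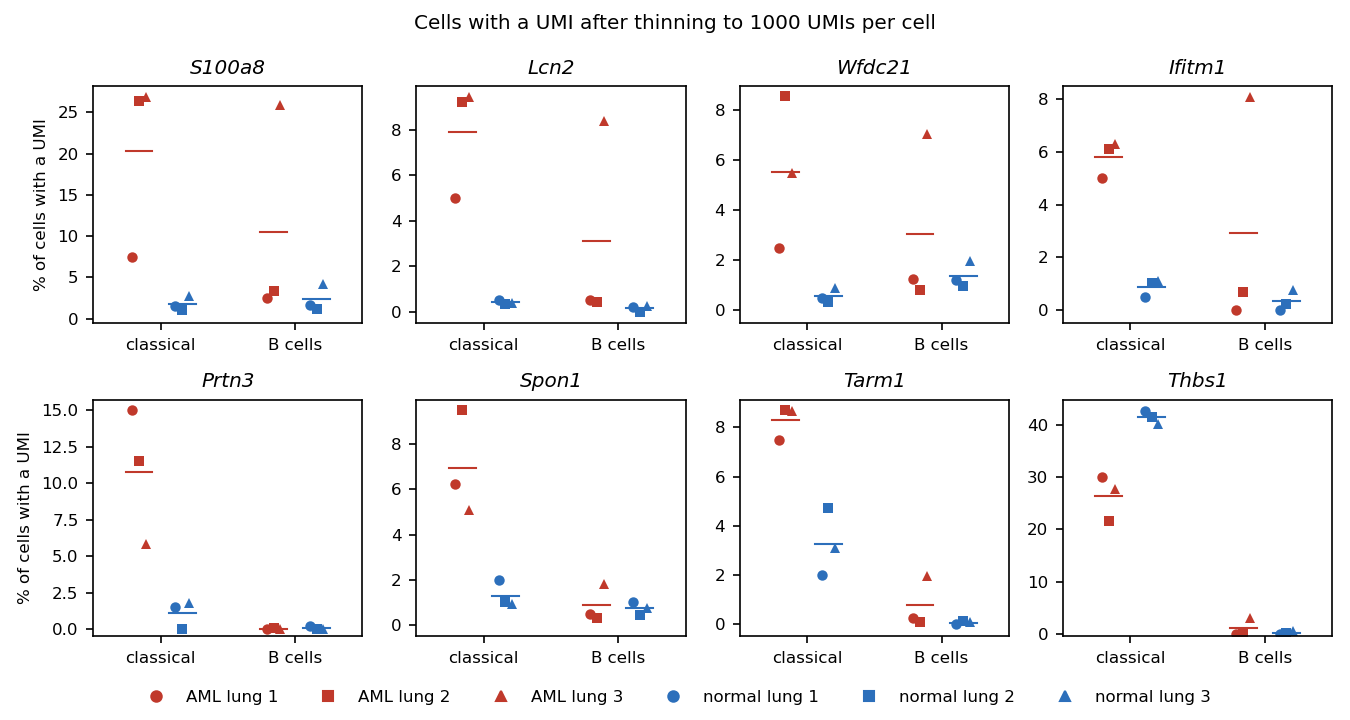
Percentage of cells with at least 1 UMI of each of 8 genes after thinning to 1000 UMIs, in classical monocytes and in B cells of the same libraries, with 1 point per library and bars at the group means. For S100a8, Lcn2, Wfdc21 and Ifitm1 the B cells of AML lung 3 reach the level of its monocytes, while Prtn3, Spon1, Tarm1 and Thbs1 stay below 3.1% in B cells of every library.

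The promoter of Lcn2 is shown for the binding letters of the C/EBP factors, which act on granule genes in myeloid precursors. It is the 250 bases before the start on the minus strand at chr2:32387740-32387989 (RefSeq, GRCm38.p6), with capitals at TTGCNNAA, searched on both strands.
Lcn2: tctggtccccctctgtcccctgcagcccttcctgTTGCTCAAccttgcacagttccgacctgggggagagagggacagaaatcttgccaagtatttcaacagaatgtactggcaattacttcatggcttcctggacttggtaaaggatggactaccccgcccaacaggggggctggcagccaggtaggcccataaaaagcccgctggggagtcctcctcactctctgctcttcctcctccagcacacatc
This window held 1 match. Of the 17 granule genes 14 were matched by symbol, and 8 of the 14 held the letters, or 57.1%, against 9.55% of all promoters. Of the called granule genes with a promoter in the table, Lcn2 was the one with a match, and S100a8 and Prtn3 had none.

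Other genes with the largest increases coded for surface, secreted and signalling proteins. Ifitm1, an interferon-induced membrane protein, had 41.2, 78.3 and 75.9 CPM in AML lung, against 13.2, 6.14 and 10.1 CPM in normal lung (log2 change 2.75 ± 0.32, adjusted p = 0.026, edgeR). It was seen in 6.29% of thinned members and 8.11% of B cells in AML lung 3, but in 5.0% and 6.11% of members and 0% and 0.662% of B cells in AML lung 1 and 2. Spon1, the matrix protein spondin 1, had 92.7, 143 and 67.3 CPM in AML lung, against 18.8, 30.0 and 29.4 CPM in normal lung (log2 change 1.96 ± 0.30, adjusted p = 0.0408, edgeR). Before thinning, Spon1 was seen in 23.8%, 26.5% and 7.63% of members in AML lung, against 7.46%, 6.40% and 5.63% in normal lung. The top 5% of members held 46.2%, 51.4% and 76.8% of its UMIs in AML lung, against 93.0%, 95.2% and 95.8% in normal lung. Where few members hold a gene this share is high by necessity. Ier3, an immediate early gene, had 99.0, 147 and 169.5 CPM in AML lung, against 33.4, 49.5 and 53.9 CPM in normal lung (log2 change 1.62 ± 0.24, adjusted p = 0.0365, edgeR). Tarm1, an activating receptor that pairs with the Fc receptor gamma chain, had 68.1, 118 and 92.9 CPM in AML lung, against 29.1, 37.9 and 31.9 CPM in normal lung (log2 change 1.52 ± 0.22, adjusted p = 0.0365, edgeR). Tarm1 was seen in 7.50% to 8.70% of thinned members and at most 1.95% of B cells in AML lung. Chosen after their values were seen, Cd38, an NAD-cleaving ectoenzyme, had 48.4 ± 23.2 CPM in AML lung, against 3.61 ± 2.42 CPM in normal lung, and Lrg1, a secreted leucine-rich glycoprotein, 43.4 ± 26.3 CPM in AML lung, against 0.943 ± 0.920 CPM in normal lung (SD, n = 3 each; adjusted p = 0.0365 and 0.0348, edgeR).

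Among the 10 genes with the largest decreases, Thbs1, or thrombospondin 1, was at 403, 348 and 433 CPM in AML lung, against 789, 821 and 839 CPM in normal lung (log2 change -1.05 ± 0.12, adjusted p = 0.026, edgeR). It was seen in 30.0%, 21.6% and 27.7% of thinned members in AML lung, against 42.8%, 41.6% and 40.1% in normal lung. Sulf2, a sulfatase that trims heparan sulfate, had 40.4, 25.2 and 43.5 CPM in AML lung, against 99.1, 103 and 91.0 CPM in normal lung (log2 change -1.44 ± 0.21, adjusted p = 0.0365, edgeR). Il15, the cytokine that sustains NK and memory T cells, had 47.5, 41.4 and 53.0 CPM in AML lung, against 120.0, 101 and 93.2 CPM in normal lung (log2 change -1.15 ± 0.16, adjusted p = 0.036, edgeR). For these 3 genes every AML library stood below every normal one by more than the spread within either group. Lack of overlap was itself a condition for naming the 10 genes, and 24.4% of all tested genes met it. Mef2c, a transcription factor of myeloid and lymphoid cells, had 201, 181 and 206 CPM in AML lung, against 318, 346 and 352 CPM in normal lung (adjusted p = 0.0365, edgeR). Myadm, a membrane protein named for myeloid differentiation, averaged 102 ± 12.4 CPM in AML lung, against 217 ± 29.2 CPM in normal lung, and Padi2, which turns arginine of proteins into citrulline, 39.4 ± 2.97 CPM in AML lung, against 83.2 ± 7.35 CPM in normal lung (SD, n = 3 each). Cyp27a1, the sterol 27-hydroxylase, averaged 30.9 ± 3.34 CPM in AML lung, against 63.4 ± 6.40 CPM in normal lung, and Atp2b1, a calcium pump of the plasma membrane, 903 ± 101 CPM in AML lung, against 1587 ± 86.4 CPM in normal lung (SD, n = 3 each). In each of these the AML libraries were all lower, as the rule for naming them required. Pacsin2, a membrane-bending protein of endocytosis, and Dock1, an exchange factor for Rac, completed the 10, with 102 ± 1.42 and 95.1 ± 8.63 CPM in AML lung, against 175 ± 20.7 and 160.0 ± 9.17 CPM in normal lung (SD, n = 3 each). Adjusted p-values of these 6 lay between 0.033 and 0.0429 (edgeR).

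**Figure D4:**
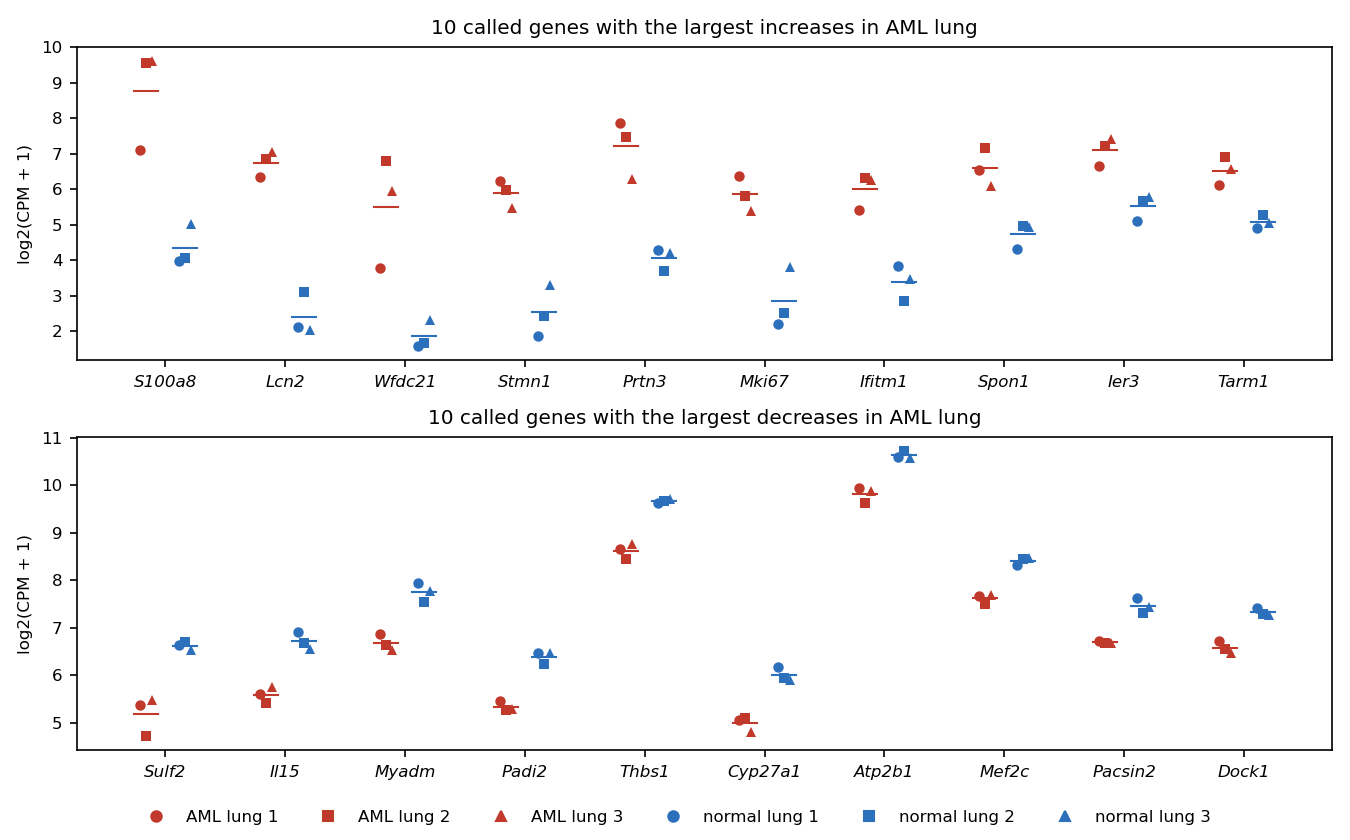
Level, as log2(CPM + 1), of the 10 genes with the largest increases (top) and the 10 with the largest decreases (bottom) among called genes whose average log2 CPM was 5 or more and whose groups did not overlap, in classical monocytes of each library. Points are libraries and bars are means of the log2 values; AML lung 1 is lowest of the AML libraries for S100a8 and Wfdc21, and Thbs1 and Atp2b1 show the tight spread of the normal libraries.

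Glycolysis genes had 1 call, Gapdh, and a median log2 change of 0.47. At an unadjusted p under 0.05, 9 of 18 were higher and 3 lower, beside 10.1% and 7.57% of all tested genes (edgeR). Gapdh, the glyceraldehyde phosphate dehydrogenase, had 982, 987 and 848 CPM in AML lung, against 380.4, 525 and 482 CPM in normal lung (log2 change 1.02 ± 0.15, adjusted p = 0.0365, edgeR). Ldha, lactate dehydrogenase A, averaged 187 ± 12.8 CPM in AML lung, against 101 ± 18.5 CPM in normal lung, and Pgk1, phosphoglycerate kinase, 185 ± 13.7 CPM in AML lung, against 114 ± 14.7 CPM in normal lung, without overlap but above the threshold (adjusted p = 0.0552 and 0.0613, edgeR). Hk2, a hexokinase at the entry of the pathway, stood at 39.4 ± 12.1 CPM in AML lung, against 85.4 ± 17.7 CPM in normal lung (SD, n = 3 each, adjusted p = 0.0785, edgeR).

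Of 18 listed immunosuppressive genes 13 were tested and 1 passed: Socs3, the feedback inhibitor of IL-6 type and G-CSF signalling, with 138, 126 and 136 CPM in AML lung, against 63.5, 57.8 and 66.8 CPM in normal lung (log2 change 1.09 ± 0.12, adjusted p = 0.0259, edgeR). Both groups were tight and far apart. Cd274, the checkpoint ligand PD-L1, had 21.4, 47.5 and 56.7 CPM in AML lung, against 18.8, 14.1 and 25.4 CPM in normal lung, and the groups overlapped (adjusted p = 0.156, edgeR). Arg2, an arginase, averaged 24.9 ± 15.6 CPM in AML lung, against 10.8 ± 0.945 CPM in normal lung, and Ptgs2, the inducible cyclooxygenase, 50.1 ± 16.2 CPM in AML lung, against 98.4 ± 22.9 CPM in normal lung (SD, n = 3 each), neither past the threshold. The list had no common direction, with a median log2 change of -0.03. Among all tested genes 0.576% were called.

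Of 13 tested matrix and coagulation genes, F10 was higher and Thbs1 and Sulf2 lower, with a median log2 change of 0.10. Calls in either direction made up 0.576% of all tested genes. F10, coagulation factor X, had 303, 317 and 278 CPM in AML lung, against 142, 157 and 140.0 CPM in normal lung (log2 change 1.03 ± 0.12, adjusted p = 0.0259, edgeR). Tgm2, a transglutaminase, stood at 161 ± 67.7 CPM in AML lung, against 43.4 ± 20.6 CPM in normal lung (SD, n = 3 each, adjusted p = 0.0934, edgeR).

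Receptors and transcription factors gave few calls, as did all tested genes, of which 0.576% were called. Of 25 tested myeloid transcription factors Mef2c was the 1 called, and lower; Cebpa, a factor of granulocyte and monocyte commitment, had 37.2, 19.2 and 53.7 CPM in AML lung, against 108, 106 and 95.9 CPM in normal lung without reaching the threshold (adjusted p = 0.0872, edgeR). None of 18 adhesion and trafficking genes passed. None of 15 Fc and inhibitory receptors passed, with Cd300lf at 113 ± 17.1 CPM in AML lung, against 49.0 ± 16.0 CPM in normal lung (SD, n = 3 each, adjusted p = 0.063, edgeR). For Cd300lf the AML libraries were all higher. None of 18 pattern recognition receptors passed, and among them Tlr4, the receptor for lipopolysaccharide, averaged 40.5 ± 11.4 CPM in AML lung, against 18.2 ± 6.36 CPM in normal lung, and Tlr7, which senses single-stranded RNA, 51.1 ± 15.7 CPM in AML lung, against 94.6 ± 12.8 CPM in normal lung (SD, n = 3 each). None of 19 growth factor receptors passed, with Il6ra at 309.5 ± 35.7 CPM in AML lung, against 490.5 ± 79.3 CPM in normal lung and Csf2rb at 221 ± 10.6 CPM in AML lung, against 159 ± 6.57 CPM in normal lung (SD, n = 3 each).

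Of 20 other genes of classical monocytes, 1 passed, Thbs1, which is lower in AML lung, and the median log2 change was -0.20. Calls made up 0.576% of all tested genes, so few were likely in any list. Lyz2, or lysozyme, had 11473, 7106 and 10254 CPM in AML lung, against 14425, 18170.0 and 13686 CPM in normal lung (adjusted p = 0.153, edgeR). Hp, haptoglobin, had 593, 572 and 566 CPM in AML lung, against 343, 420.2 and 280.4 CPM in normal lung (adjusted p = 0.0872, edgeR). None of 18 tested genes of nonclassical monocytes passed, with Cx3cr1, the fractalkine receptor, at 89.9 ± 45.6 CPM in AML lung, against 219 ± 37.9 CPM in normal lung (SD, n = 3 each, adjusted p = 0.131, edgeR). Of 12 antigen-presenting genes none passed, 10 had a negative log2 change, and the median was -0.44; Batf3, a factor of dendritic cells, averaged 26.7 ± 6.39 CPM in AML lung, against 46.7 ± 6.41 CPM in normal lung (SD, n = 3 each, adjusted p = 0.104, edgeR). Cd209a, a lectin of monocyte-derived dendritic cells, varied within both groups, at 83.2, 8.60 and 12.8 CPM in AML lung, against 86.6, 44.0 and 79.4 CPM in normal lung.

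Inflammatory, interferon and stress genes were largely without calls, as were all tested genes, of which 0.576% were called. At an unadjusted p under 0.05, 7.57% of all tested genes were lower (edgeR). None of 17 inflammatory and NF-kB genes passed. Saa3, an acute phase protein, had 45.9, 85.6 and 212 CPM in AML lung, against 0, 13.7 and 1.53 CPM in normal lung, without overlap (log2 change 4.58 ± 0.94, adjusted p = 0.0773, edgeR); it was seen in 5.0%, 4.89% and 12.2% of thinned members in AML lung and in 0.751% of B cells at most. In AML lung 1, 91.4% of the Saa3 UMIs lay in 4 cells. Il1b, the cytokine interleukin 1 beta, averaged 479 ± 157 CPM in AML lung, against 265 ± 94.6 CPM in normal lung (SD, n = 3 each, adjusted p = 0.209, edgeR). None of 19 interferon-stimulated genes passed, 5 were lower at an unadjusted p under 0.05, and the median log2 change was -0.20; Rsad2, an antiviral enzyme, averaged 36.9 ± 7.70 CPM in AML lung, against 58.9 ± 5.74 CPM in normal lung (SD, n = 3 each, adjusted p = 0.129, edgeR). Of 18 immediate early and heat shock genes Ier3 alone passed, higher, while the median was -0.23 and 6 were lower at an unadjusted p under 0.05, such as Zfp36, which destabilises cytokine mRNA, at 546 ± 113 CPM in AML lung, against 911 ± 85.7 CPM in normal lung (SD, n = 3 each, adjusted p = 0.1, edgeR). None of 15 unfolded protein response genes, 16 macrophage differentiation genes and 17 lipid genes passed, with medians of -0.07, 0.15 and -0.19, and of 11 tested iron and haem genes Lcn2 was the 1 call.

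Whether the AML change differed between classical and nonclassical monocytes was tested as an interaction, with the library as a block. Of 11276 tested genes 17 passed (0.151%, edgeR's quasi-likelihood test, Benjamini-Hochberg), 5 with a more positive change in classical monocytes (0.0443%) and 12 with a more negative one (0.106%). Of the 8 genes named by size none passed the test within classical monocytes alone, where their log2 changes lay between -0.45 and 0.68. Wfdc17, a small secreted protein of activated macrophages, had 836, 1159 and 789.7 CPM in classical monocytes of AML lung and 619.9, 510.4 and 625 CPM in those of normal lung. In nonclassical monocytes it had 263, 312 and 281 CPM in AML lung, against 33.1, 44.7 and 53.6 CPM in normal lung, and its AML change in classical minus that in nonclassical monocytes was -2.06 ± 0.20 on the log2 scale (SE, adjusted p = 0.0274, edgeR). Aoah, which inactivates lipopolysaccharide, had 182, 121 and 89.7 CPM in classical monocytes of AML lung and 143, 144 and 127 CPM in those of normal lung. Its nonclassical levels were 59.1, 60.5 and 61.9 CPM in AML lung, against 15.3, 12.9 and 12.2 CPM in normal lung (difference of log2 changes -2.31 ± 0.27, adjusted p = 0.0364, edgeR). Apoe, the lipid carrier apolipoprotein E, had 538, 299 and 835 CPM in classical monocytes of AML lung and 809, 709 and 649 CPM in those of normal lung. In nonclassical monocytes Apoe stood at 296, 252 and 587 CPM in AML lung, against 2308, 1418 and 1183 CPM in normal lung (difference of log2 changes 1.66 ± 0.21, adjusted p = 0.0367, edgeR). The 17 calls became 0 without AML lung 2, normal lung 1 or normal lung 3 (905, 1040 and 1210 at an unadjusted p under 0.05), 6 without normal lung 2, 50 without AML lung 1 and 489 without AML lung 3.

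**Figure D5:**
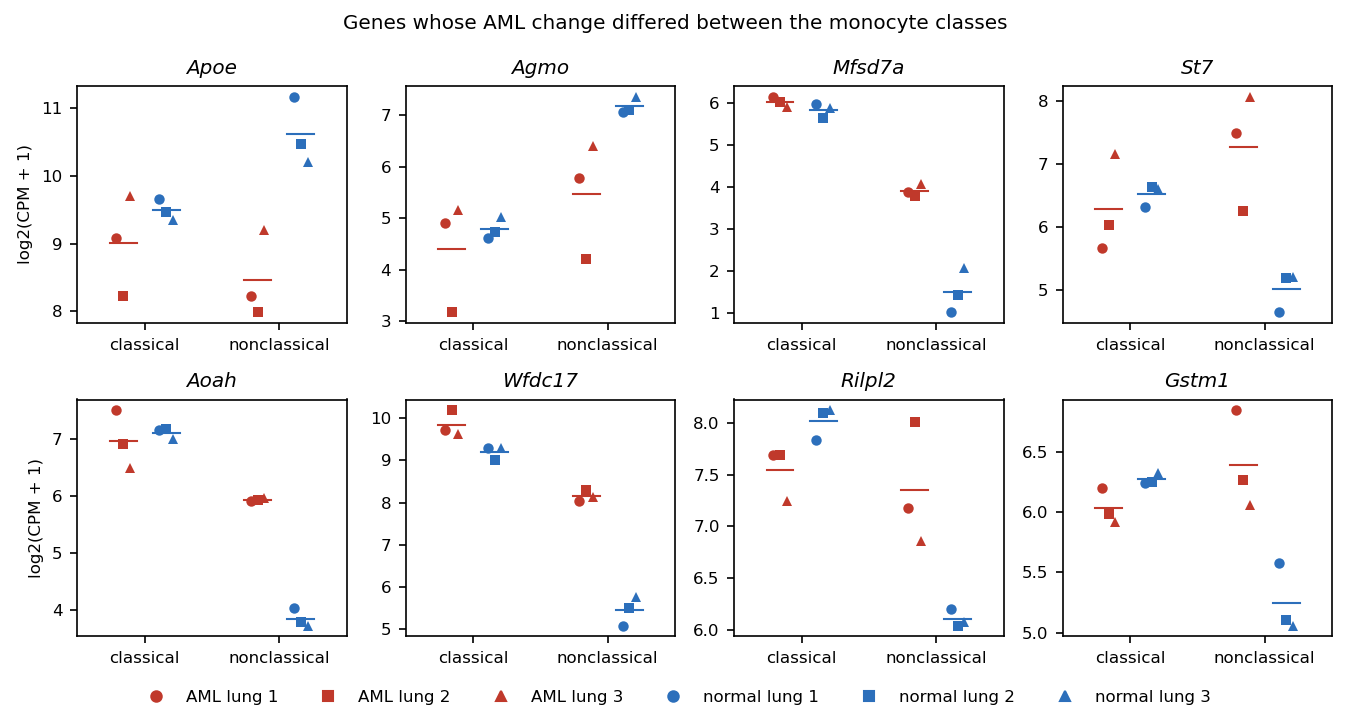
Level, as log2(CPM + 1), in classical and nonclassical monocytes of each library for 8 genes whose AML change differed between the classes, with bars at the means of the log2 values. In nonclassical monocytes the AML libraries lie below the normal ones for Apoe and Agmo and above them for the other 6 genes; in classical monocytes the groups lie closer.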

How the data were processed

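Libraries of CD45-positive mouse lung cells were used, 3 from AML-infiltrated and 3 from normal lung, grouped by their labels. The authors deposited unnormalized UMI counts of 32285 features in each barcode. Per the submitters' processing notes they used Cell Ranger 7.0.0 and the build mm10; how barcodes were filtered before deposit is not stated there.

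Cells were kept at 500 or more UMIs, 200 or more genes and under 10% mitochondrial UMIs. The members, gene lists and the rule for named genes were chosen with earlier results of these data known. Counts of members were summed per library for edgeR 4.0.16 under R 4.3.3 (filterByExpr, TMM, quasi-likelihood test, Benjamini-Hochberg threshold 0.05); DESeq2 1.42.0 was an alternative. Library sizes were 1252300 to 5844363 UMIs, so genes near 1 CPM rest on a few UMIs. Shares were compared with a two-sided exact permutation test over libraries. The interaction model held both monocyte classes with the library as a block. Cells were thinned to 1000 UMIs, with 500 as an alternative, for shares of cells with a UMI and of cycling cells.

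Named genes were the 10 largest increases and 10 largest decreases among called genes with an average log2 CPM of 5 or more and no overlap. Left out were rule genes, unnamed models and ribosomal, mitochondrial, haemoglobin, sex-linked and antigen receptor genes. To these came up to 5 genes by p of each list, as far as the text names them, the rule genes, and up to 6 genes in each direction of the interaction. Doublets were predicted with Scrublet in scanpy 1.11.5. Its own threshold marked 0% of cells in AML lung 2, AML lung 3 and normal lung 3, so 0.223, the median of the thresholds elsewhere, replaced it; predicted doublets, 0% to 1.31% of members, were kept in the main results. Nonclassical monocytes met the other limits of the rule. B cells held 2 or more of Cd79a, Cd79b and Ms4a1, fewer than 2 rule genes, and no UMI of Cd3e or Ncr1. Fits were tested on simulated data. Libraries of 1 group differed beyond the sampling of single UMIs (chi-square per degree of freedom at least 4.00). Each was counted as 1 sample. UMIs of 1 cell are not independent, so this value cannot tell whether libraries came from separate animals. Promoters came from a RefSeq table on GRCm38.p6. Some genes of the lists are not reported here.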

Additional observations from a re-analysis of the deposited data

Results flagged for a closer look

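Genes whose AML change differed between classical and nonclassical monocytes by the interaction test (edgeR, adjusted over 11276 genes) were the results that stood out between classes. The differences below are log2 changes in classical minus nonclassical monocytes, AML lung against normal lung. Mfsd7a, a transporter of the major facilitator family, differed by -2.57 and St7 by -2.43. Aoah differed by -2.31, Wfdc17 by -2.06, Rilpl2 by -1.74 and Gstm1, a glutathione transferase, by -1.38. Apoe differed by 1.66 and Agmo, which cleaves ether lipids, by 1.29. Cd14, the co-receptor for lipopolysaccharide, differed by -1.18 and was chosen after its values were seen. It had 277, 175 and 413 CPM in classical monocytes of AML lung and 283, 400.4 and 313 CPM in those of normal lung, and in nonclassical monocytes 64.5, 36.5 and 90.2 CPM in AML lung, against 23.9, 41.8 and 32.0 CPM in normal lung. Hba-a1 and Hbb-bt, haemoglobin genes, were also among the 17 calls, beside the 493.5 CPM of erythroid marker RNA in members of AML lung 3; the part of that RNA in the calls was not tested. All 9 genes kept their sign under each of 11 alternatives, and each kept its call when 1 library was left out in only 2 or 3 of 6 cases. Groups of 3 libraries are too small for a test of single libraries that stand apart.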

How the results depend on the processing

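The 59 calls between AML and normal lung became 0 to 526 when 1 library was left out, lowest without normal lung 1 and highest without AML lung 3, so they rest on the choice of libraries. They became 619 with no low count filter, 321 in DESeq2, 112 with 4 or more rule genes, 2 with 2 or more (Lcn2 and Mir99ahg), 38 with no UMI of other cells' genes, 101 with an equal number of cells per library, and 0 in members with no UMI of granule genes, where AML lung 1 and normal lung 1 kept 5 and 9 cells and 229 genes had an unadjusted p under 0.05 in edgeR. RLE size factors, predicted doublets left out, cells of 1000 or more UMIs and thinning gave 58 to 70; thinning shared 17 calls with the 59. Same-numbered libraries correlated at 0.27, 0.02 and 0.31 in their deviations from the group means, and pairs of unlike number at -0.30 to 0.04. The labels state no pairing, so the main fit held no replicate block. Whether the numbers pair the libraries was not tested. With the replicate block there were 126 calls. The 17 interaction calls became 0 to 489 when 1 library was left out, 699 with no low count filter and 34 with 4 or more rule genes. The difference in the share of classical monocytes, 0.0274 percentage points, lay between -1.87 and 2.12 when 1 library was left out. It was -1.18 with 4 or more rule genes, -0.245 with no UMI of other cells' genes, -0.0749 without predicted doublets, and -0.0471 and -0.465 after thinning to 1000 and 500 UMIs. The cause of these moves was not tested. The difference in the cycling share kept its sign throughout, at 0.846 to 12.1 percentage points. The 81 genes followed kept their direction in all 1410 gene and setting pairs in which they were tested. Of these, 202 pairs lost a call and 118 gained one. Some genes fell out of the test in some settings, among them thinning and members with no UMI of granule genes. Depth limits the members of AML lung 3, at a median of 1398 UMIs, and of AML lung 1, at 80 cells.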
